A study of Rattus norvegicus with 8 samples.

Results

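The transcripts of 8 heat shock proteins and chaperones, Hspca, Hspcb, Hspa5, Hspa8, Hspd1, Hspe1, Hspb1 and Dnaja1, were followed in rat fetal testis explants exposed to monoethylhexylphthalate (MEHP), the active metabolite of a widely used plasticizer. Every probe that carries one of these gene names on the array was taken, which gave 18 of its 41012 probes. Hspca, Hspa8 and Hspd1 had 4 probes each and Hspcb had 2, whereas Hspa5, Hspe1, Hspb1 and Dnaja1 had 1 each. Each explant was a whole testis of a rat fetus kept in culture for 72 h with vehicle, 1 µM MEHP or 10 µM MEHP. RNA from 1 testis at 1 µM and from 3 testes at 10 µM, from different litters per the methods, was hybridized against a pool of 3 vehicle-treated testes, and each hybridization was repeated once with the dyes exchanged, which gave 8 arrays. All values below are log2 ratios of MEHP over the vehicle pool, so that 1 is a doubling and -1 is a halving, and the value of a testis is the mean of its 2 hybridizations.

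Chaperones bind unfolded or newly made proteins and help them to fold, assemble or cross membranes. Cells raise many of them when heat, oxidants or toxic compounds damage proteins: heat shock factor 1 does so for the cytosol and the nucleus, and the unfolded protein response does so for the endoplasmic reticulum. HSP90 and HSP70 proteins also hold steroid hormone receptors in a state that can bind hormone, and mitochondrial chaperones fold the enzymes that cells such as Leydig cells import to make steroids.

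The dye of each sample decided the sign of every ratio. The labels put MEHP on Cy3 throughout, whereas the methods describe an exchange within each pair of arrays; the red over green ratios of the arrays of a pair opposed each other across probes, with correlations between -0.82 and -0.49, and MEHP was therefore read in green on the first and in red on the repeat hybridization. This direction is likely rather than settled, because no source states which array of a pair was exchanged, and the other reading would turn every sign. It rests on the 10 µM testis 2, in which 1 RNA was dim on both arrays, in green on the first and in red on the repeat, while the vehicle pool was common to all arrays and bright on the others. Before dye normalization, the median signal above background of the 17 tested chaperone probes in the MEHP channel of testis 2 was 50.7 and 28.6 scanner units, against 856 and 328 for the vehicle pool on the same arrays. On the other 6 arrays the median in the MEHP channel lay between 106 and 1951 units. None of the 17 probes was well above background for MEHP on the first array of testis 2, and on the repeat only Hspe1 and the Hspcb probe A_44_P287194 were. On the other 6 arrays between 10 and 17 of the 17 were. Over all probes the share well above background for MEHP was 0.241% and 1.55% in testis 2 and between 7.74% and 29.2% elsewhere. The ratios of testis 2 are therefore given apart, and the counts at 10 µM and the means of the 8 genes are given with and without it.

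**Figure D1:**
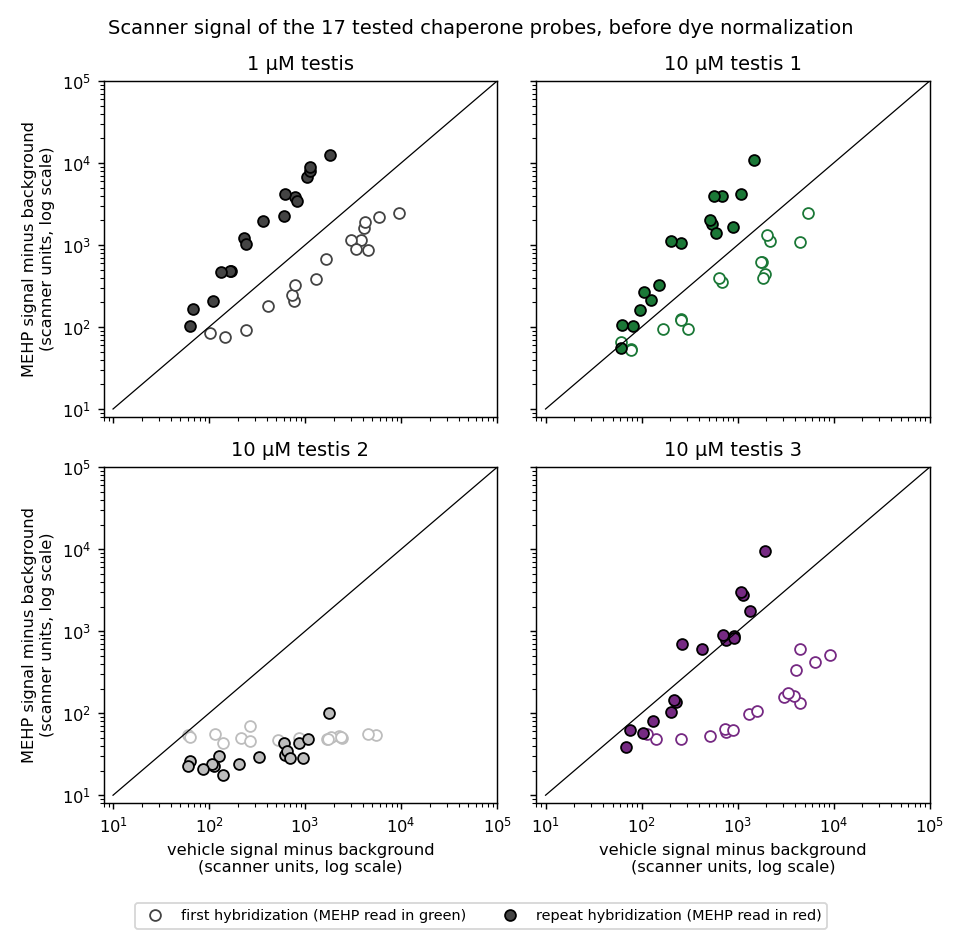
Signal above background in scanner units, before dye normalization, of the 17 tested chaperone probes in the vehicle channel (horizontal, log scale) and the MEHP channel (vertical, log scale), with 1 panel per testis, open points for the first and filled points for the repeat hybridization, and a line of equal signal. In the 10 µM testis 2 the points lie flat near the bottom, with medians of 50.7 and 28.6 units in the MEHP channel, while in the other testes they rise with the vehicle signal, to 603 units on the first array of testis 3 and to 2489 or more on the other arrays.

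At 10 µM, 0 of the 17 chaperone probes that could be tested passed limma's test over the 3 testes (adjusted p of 0.05, Benjamini-Hochberg adjustment over all probes), where 2.22% of the 9996 tested probes did, 37 of them higher and 185 lower. With each array centred on its median, which moved the median of all tested probes from -0.42 to 0.04, 58 were higher and 63 lower, and still 0 of the 17 passed. At an unadjusted p under 0.05, 7 of the 17 passed, against 17.7% of all tested probes. The eighteenth, the Hspa8 probe A_44_P396546, was not well above background in either channel of any of the 8 arrays. It was therefore not tested, and its ratios are not given. Without testis 2, 4 of 17 probes passed and all were lower: the Hspca probe A_44_P135339 and the Hspd1 probes A_44_P426558, A_44_P846589 and A_42_P651962. Among all probes 16.9% then passed and 9.64% were lower. At an unadjusted p under 0.05, 9 of the 17 then passed, against 34.1%. Their mean ratio was below 0 in all 3 testes for 7 of 17 probes, against 36.4% of all tested probes. Testis 1 had a median over the 17 of 0.03, testis 2 of -2.10 and testis 3 of -1.03, while all tested probes had medians of 0.09, -1.14 and -0.20. Hspcb, Hspa5, Hspa8, Hspe1, Hspb1 and Dnaja1 had no probe that passed with or without testis 2.

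At 1 µM, where 1 testis allows no test, a probe was counted as changed if both hybridizations differed from the pool by at least 1.5-fold in the same direction. Then 5 of the 17 chaperone probes were changed and all 5 were higher, in 5 different genes: Hspa8, Hspb1, Hspe1, Hspa5 and Hspd1. Over the whole array 7.01% of 13174 probes were changed, 4.05% higher and 2.96% lower. When the tested probes were put into 10 equal classes by signal, 9 of the 17 lay in the brightest class, in which 5.10% were higher by this rule. None of the 5 reached 2-fold in both hybridizations, and with arrays centred on their medians only Hspb1 kept 1.5-fold in both, as the repeat hybridization of the others fell below it. When both channels had to be well above background on both arrays, 4 of the 5 remained, without Hspb1, whose vehicle signal was not on the repeat.

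**Figure D2:**
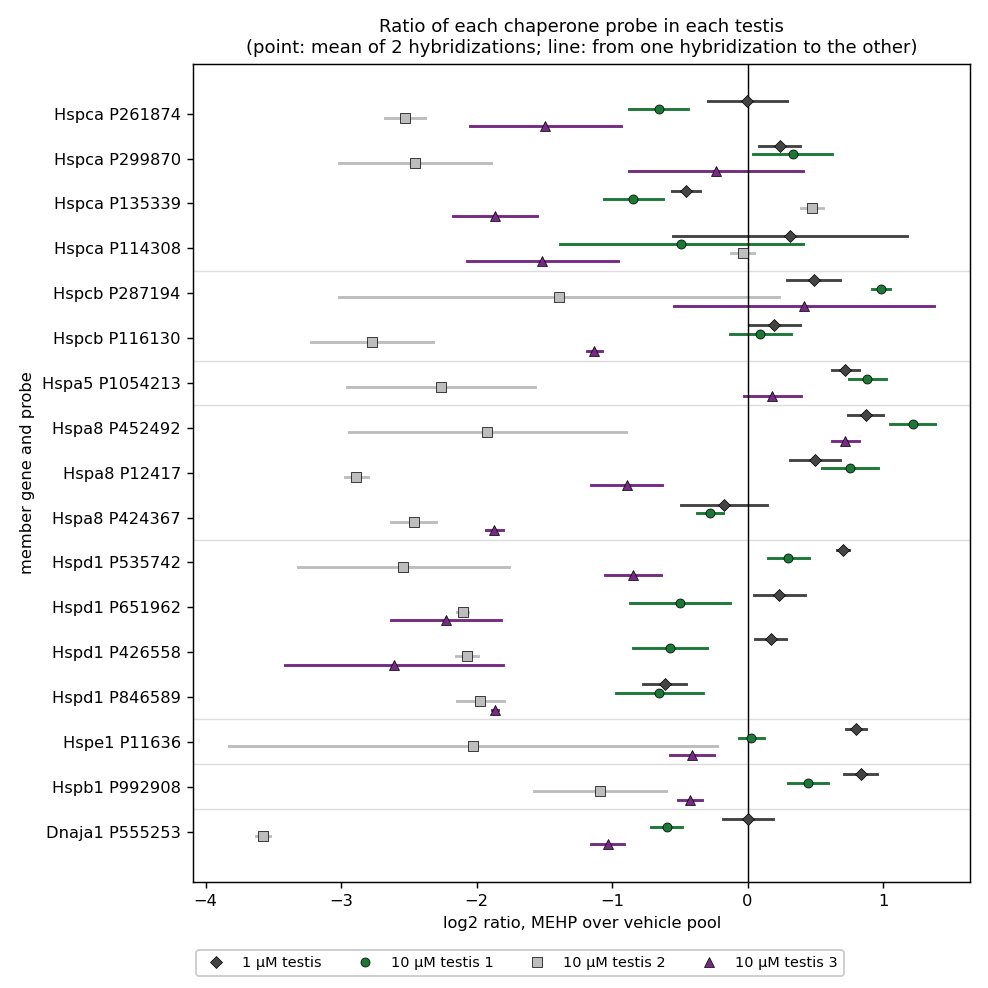
Log2 ratio of MEHP over the vehicle pool (horizontal) for each of the 17 tested chaperone probes, named by gene and the last part of the probe name (vertical), with 1 symbol per testis at the mean of its 2 hybridizations and a line joining them. The 1 µM testis (diamonds) lies above 0 for 13 probes, the 10 µM testis 3 (triangles) lies below the 10 µM testis 1 (circles) for every probe, and testis 2 (grey squares) lies below -1 for all but 2 Hspca probes.

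Hspca, now named Hsp90aa1, encodes the stress-inducible cytosolic HSP90, a chaperone of kinases and steroid receptors. Its 4 probes gave different answers. The brightest, A_44_P261874, was at 0.00 at 1 µM. The higher dose gave -0.66, -2.53 and -1.49 in testes 1, 2 and 3, with all 6 hybridizations below 0 (-1.56 ± 0.94, SD, n = 3, adjusted p = 0.107 by limma). Without testis 2 the mean was -1.07 (adjusted p = 0.0602). A_44_P299870 was at 0.24 at 1 µM and at 0.33, -2.46 and -0.23 at 10 µM. It lay on both sides of 0 at 10 µM, and its mean was -0.79 with testis 2 and 0.05 without it.

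A_44_P135339 was at -0.45 at 1 µM and at -0.84, 0.47 and -1.86 in testes 1, 2 and 3 at 10 µM. It was lower than the vehicle pool in both hybridizations of the 1 µM testis and of testes 1 and 3, and higher in those of testis 2. In testis 2 its signal for MEHP after dye normalization was 3366 and 879 units, yet not well above background on either array. Without testis 2 its mean was -1.35 with a standard error of 0.37 (adjusted p = 0.0319 by limma), a fall. In testis 3 the MEHP channel was not well above background on the first array, at 59.5 scanner units against 753 for the vehicle, so the size of this fall rests in part on an undetected channel. With all 3 testes the mean was -0.74 (SD 1.17, adjusted p = 0.507). The dimmest Hspca probe, A_44_P114308, was at 0.31 at 1 µM and at -0.49, -0.04 and -1.51 at 10 µM, and its hybridizations in the 1 µM testis read -0.55 and 1.18. Its mean without testis 2 was -1.001 (adjusted p = 0.0826 by limma). Without testis 2 the means of the 4 Hspca probes spread over 1.40, from -1.35 to 0.05, wider than in 92.6% of the 854 genes with several tested probes. Of these genes, 735 had 2 tested probes and a median range of 0.47, and the 19 with 4 had one of 0.85. The percentage thus sets a gene with 4 probes mostly against genes with 2.

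Hspcb, now Hsp90ab1, encodes the constitutive form of cytosolic HSP90. Its bright probe A_44_P287194 was at 0.49 at 1 µM, with hybridizations of 0.29 and 0.68, and at 0.99, -1.39 and 0.42 in testes 1, 2 and 3 at 10 µM. Testes 1 and 3 were above the pool on average, although the hybridizations of testis 3 read -0.55 and 1.38. The mean at 10 µM was 0.00 (SD 1.24) and 0.70 without testis 2, with a standard error of 0.34 (adjusted p = 0.175 by limma). The second probe, A_44_P116130, was at 0.20 at 1 µM and at 0.10, -2.77 and -1.13 at 10 µM, with a mean of -1.27, and of -0.52 without testis 2. The probes thus differed by 0.89 in testis 1 and by 1.55 in testis 3.

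Hspa8 encodes HSC70, the constitutive cytosolic HSP70 that folds new proteins and uncoats clathrin vesicles. Its brightest probe, A_44_P452492, was at 0.87 at 1 µM, with hybridizations of 1.00 and 0.74, a 1.83-fold rise. At 10 µM it read 1.22 in testis 1 and 0.72 in testis 3, all 4 of these hybridizations being above 0.6. Testis 2 read -1.92. The mean at 10 µM was 0.01 (SD 1.69, n = 3), and without testis 2 it was 0.97 with a standard error of 0.34 (adjusted p = 0.0724 by limma), the highest of the 17 probes but short of the threshold. A_43_P12417 was at 0.50 at 1 µM and at 0.76, -2.89 and -0.89 at 10 µM, so that testes 1 and 3 lay on either side of 0 and averaged -0.07. A_44_P424367 was at -0.17 at 1 µM and at -0.28, -2.46 and -1.87 at 10 µM, below 0 in all 6 hybridizations (mean -1.54, adjusted p = 0.113, and -1.07 without testis 2, adjusted p = 0.0939). The range between the Hspa8 probes without testis 2, 2.04, was wider than in 98.1% of genes with several tested probes, most of which had 2. The 97 genes with 3 tested probes, as here, had a median range of 0.84.

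Hspa5 encodes BiP, the HSP70 of the endoplasmic reticulum and the sensor that holds the unfolded protein response in check. Its probe was at 0.72 at 1 µM, with hybridizations of 0.82 and 0.62, and at 10 µM it read 0.88 in testis 1, -2.26 in testis 2 and 0.18 in testis 3. Each hybridization of the 1 µM testis and of testis 1 was above 0.6, those of testis 3 read -0.03 and 0.39, and those of testis 2 read -2.95 and -1.57. The mean at 10 µM was -0.40 (SD 1.65, adjusted p = 0.769 by limma), and it was 0.53 without testis 2 (adjusted p = 0.305) and 0.06 with arrays centred.

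The promoters of these HSP70 genes are shown because each gene had a probe that was higher at 1 µM. The windows are from RefSeq (rat build GRCr8) and run from 250 bases before to 50 bases after the transcription start, on the strand of the gene. Capitals mark a heat shock element, searched as GAANNTTC or TTCNNGAA, each of which reads the same on both strands, or the endoplasmic reticulum stress element, searched on either strand as CCAAT and CCACG with 9 bases of any kind between them. Of 33469 rat promoter windows, 15.9% held the first motif and 0.0657%, 22 windows, held the second. Hspa5 held 1 endoplasmic reticulum element, starting 43 bases before the start site, and no heat shock element. Hspa8 held 4 heat shock matches in 2 overlapping pairs, and 2 or more were found in 2.28% of windows. Among the other members, Dnaja1, which was at 0.01 at 1 µM, held 3 heat shock matches, and Hspcb held neither motif. The windows included none for Hspca, so its promoter was not searched. A match is a string of letters and not a shown binding site.
Hspa5, chr3:38452766-38453065, plus strand: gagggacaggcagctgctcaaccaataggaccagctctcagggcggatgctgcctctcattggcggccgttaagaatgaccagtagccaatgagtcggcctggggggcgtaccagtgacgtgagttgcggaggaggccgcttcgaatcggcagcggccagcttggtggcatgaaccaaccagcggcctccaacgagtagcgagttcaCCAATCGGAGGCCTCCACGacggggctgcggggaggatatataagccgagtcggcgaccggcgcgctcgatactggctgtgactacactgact
Hspa8, chr8:50080264-50080563, plus strand: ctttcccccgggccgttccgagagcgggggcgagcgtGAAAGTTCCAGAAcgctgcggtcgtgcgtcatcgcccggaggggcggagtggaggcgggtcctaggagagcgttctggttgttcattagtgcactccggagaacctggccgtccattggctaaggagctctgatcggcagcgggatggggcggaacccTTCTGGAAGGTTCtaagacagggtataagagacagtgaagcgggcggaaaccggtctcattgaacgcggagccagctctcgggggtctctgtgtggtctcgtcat

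Hspd1 encodes HSP60 and Hspe1 encodes HSP10, the barrel and the lid of the mitochondrial chaperonin. They lie next to each other on chromosome 9 and are transcribed away from a common promoter, with 289 bases between the start sites, and it is shown because it serves both genes. Their windows overlap by 211 bases and share a stretch of 18 bases, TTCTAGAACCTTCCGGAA on the plus strand, with 3 overlapping heat shock matches.
Hspe1, chr9:64084077-64084376, plus strand: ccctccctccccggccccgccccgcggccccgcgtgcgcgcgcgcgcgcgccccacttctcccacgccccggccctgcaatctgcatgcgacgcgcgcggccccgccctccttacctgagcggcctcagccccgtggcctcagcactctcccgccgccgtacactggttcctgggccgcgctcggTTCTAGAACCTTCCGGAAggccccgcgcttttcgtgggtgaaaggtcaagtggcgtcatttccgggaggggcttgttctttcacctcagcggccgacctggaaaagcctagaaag

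Hspe1 was at 0.80 at 1 µM, with hybridizations of 0.73 and 0.88, a 1.74-fold rise. At 10 µM it was at 0.03, -2.03 and -0.41 in testes 1, 2 and 3 (mean -0.80, SD 1.08, adjusted p = 0.465 by limma), and at -0.19 without testis 2 (adjusted p = 0.723). Its hybridizations in testis 2 read -3.83 and -0.22, far apart, and the MEHP channel was well above background on the second array only.

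The brightest Hspd1 probe, A_44_P535742, was at 0.70 at 1 µM, with hybridizations of 0.75 and 0.66, and at 0.30, -2.54 and -0.85 in testes 1, 2 and 3 at 10 µM. Its mean without testis 2 was -0.27 (adjusted p = 0.639 by limma). The 3 dimmer probes were below 0 in all 3 testes and in all 6 hybridizations at 10 µM. A_42_P651962 was at -0.50, -2.10 and -2.23, A_44_P426558 was at -0.57, -2.07 and -2.61, and A_44_P846589 was at -0.65, -1.97 and -1.86. Testis 1 gave the weakest fall for each of them. Without testis 2 they fell by 1.36 (adjusted p = 0.0493), 1.59 (adjusted p = 0.0373) and 1.26 (adjusted p = 0.0451) on the log2 scale. On the first array of testis 3 the MEHP channel of all 3 was not well above background, at 62.5, 52.3 and 48.5 scanner units, near the level of testis 2, and that of A_44_P846589 was not on the first array of testis 1 either. The sizes of these falls therefore rest in part on undetected channels, and A_44_P426558 read -3.41 on that array of testis 3 and -1.80 on the other. With all 3 testes A_44_P426558 had the lowest adjusted p of the 17 probes, 0.0662, with a mean of -1.75. At 1 µM the 3 probes were at 0.24, 0.17 and -0.61, in that order. HSP60 and HSP10 probes therefore read from 0.80 to -0.61 at 1 µM, and the direction for Hspd1 depended on the probe.

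Hspb1 encodes HSP27, a small heat shock protein that binds unfolding proteins without ATP and steadies actin filaments. Its probe was printed 10 times on every array. In the 1 µM testis the 10 spots averaged 0.71 (SD of spots 0.19) on the first and 0.96 (SD of spots 0.56) on the repeat hybridization, and all 10 were above 0 on both arrays. At 10 µM it was at 0.45, -1.09 and -0.43 in testes 1, 2 and 3 (mean -0.35, SD 0.77, n = 3, adjusted p = 0.793 by limma). Testes 1 and 3 lay on either side of 0, and the mean was 0.01 without testis 2 and 0.10 with arrays centred. The spots of 1 array spread with an SD between 0.19 and 0.66, and in the MEHP channel the probe was well above background on 2 of 6 arrays at 10 µM. Its promoter held 2 heat shock matches, starting 129 and 109 bases before the start site.
Hspb1, chr12:26432252-26432551, minus strand: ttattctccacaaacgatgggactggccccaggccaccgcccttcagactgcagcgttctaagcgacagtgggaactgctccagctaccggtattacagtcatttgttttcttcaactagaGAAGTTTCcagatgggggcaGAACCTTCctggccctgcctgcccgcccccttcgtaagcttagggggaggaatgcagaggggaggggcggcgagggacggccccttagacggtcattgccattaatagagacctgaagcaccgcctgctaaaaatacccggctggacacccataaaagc

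**Figure D3:**
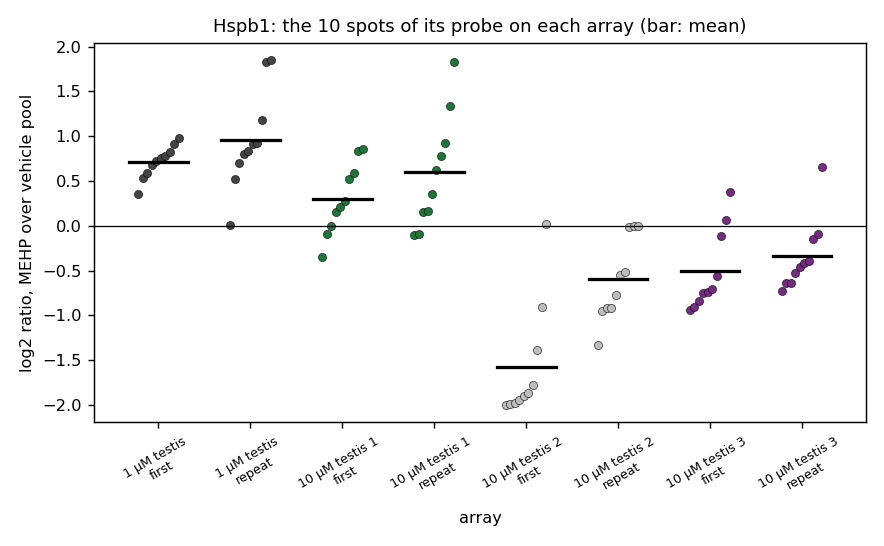
Log2 ratio of MEHP over the vehicle pool (vertical) for each of the 10 spots of the Hspb1 probe on each of the 8 arrays (horizontal), with the mean of the spots as a bar. The means are 0.71 and 0.96 in the 1 µM testis, 0.30 and 0.60 in testis 1, and below 0 in testes 2 and 3.

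Dnaja1 encodes an HSP40 co-chaperone that hands substrates to HSP70 and starts its ATP cycle. It was at 0.01 at 1 µM and at -0.60, -3.58 and -1.03 in testes 1, 2 and 3 at 10 µM, below 0 in all 6 hybridizations. Its mean at 10 µM was -1.74 (SD 1.61, n = 3), with an adjusted p of 0.0722 by limma. Without testis 2 the mean was -0.82, with a standard error of 0.34 (adjusted p = 0.117). When each of the 8 genes was read from its brightest probe, Dnaja1 and Hspca alone were below 0 in all 3 testes. That is 25%, against 36.4% of all tested probes. In testis 2 none of the 8 was above 0, so that testis did not separate the genes.

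In Hspcb, Hspa8 and Hspd1 the brightest probe of the gene had the highest mean ratio in testes 1 and 3, and in Hspca it did not. Brightness is here the mean log2 signal over both channels of the 6 arrays at 10 µM, and it does not rank the genes by level. It includes the MEHP signal from which the ratios at 10 µM come. A higher MEHP signal thus raises both brightness and ratio, and the order of probes at 10 µM is in part built in. In testis 3 the brightest probe exceeded the median of the others by 1.55 in Hspcb, 2.10 in Hspa8, 1.38 in Hspd1 and 0.02 in Hspca. In testis 1 the same differences were 0.89, 0.98, 0.87 and -0.17, and in the 1 µM testis they were 0.29, 0.71, 0.53 and -0.24. Over the 854 genes with several tested probes, the brightest had the highest ratio in 61.6%, and its median excess over the others was 0.38 in testis 3, 0.07 in testis 1 and 0.12 in the 1 µM testis. Across single probes the median ratio in testis 3 did not rise with the class of brightness. It was highest in the dimmest class, at 0.09, lowest in class 4 counted from the dimmest, at -0.50, and -0.17 in the brightest. Probe sequences and their positions in the transcripts were not used here, and the part of brightness in the disagreement between probes was not tested.

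**Figure D4:**
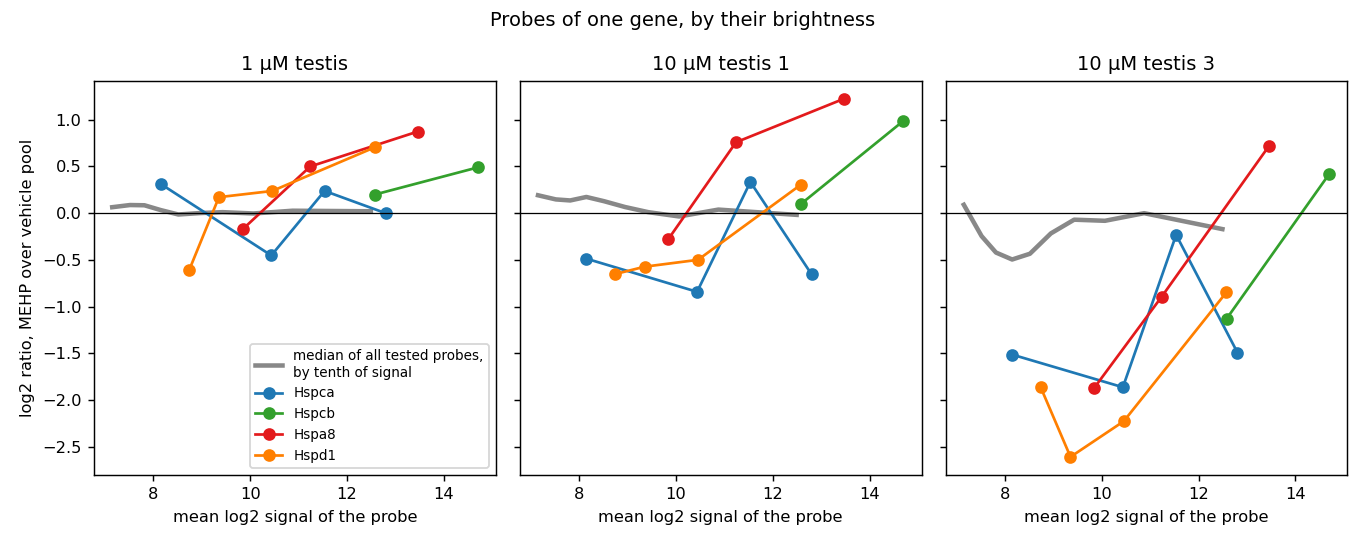
Log2 ratio of MEHP over the vehicle pool (vertical) against the mean log2 signal of the probe (horizontal) for the genes with several tested probes, in the 1 µM testis and the 10 µM testes 1 and 3, with the probes of a gene joined and the median of all tested probes by class of signal in grey. The lines of Hspa8, Hspcb and Hspd1 end highest at the brightest probe, at 0.72, 0.42 and -0.85 in testis 3, and the line of Hspca does not.

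The ratios at 10 µM were below those at 1 µM for all 17 probes when the means of 3 and 1 testes were compared, with a median difference of -1.36, against a median of -0.52 over all tested probes. Without testis 2 it held for 15 of the 17, with a median of -0.82, against -0.12 over all tested probes. No probe of the array passed this comparison (limma, 0 of 9994, and 24 at an unadjusted p under 0.05, 0.24%), and no chaperone probe reached an unadjusted p under 0.05. Without testis 2 no probe passed either, 545 were under 0.05 unadjusted, and of the chaperone probes only Hspd1 A_44_P426558 was (-1.76, unadjusted p = 0.0471 and adjusted p = 0.861 by limma). The differences of the chaperone probes ran from -1.92 for Hspd1 A_44_P426558 to -0.29 for Hspca A_44_P135339, each with a standard error between 1.12 and 1.14. Testis 3 and the 1 µM testis shared a slide, and testes 1 and 2 shared the other. Within the shared slide the 1 µM testis was above testis 3 for all 17 probes, by 0.07 to 2.78, as it was for 61.5% of all tested probes. After each array was centred on its median this held for 15 of 17 probes, against 47.0% of all probes. The 1 µM testis was above testis 1, on the other slide, for 12 of the 17, against 48.7% of all tested probes. Testis 1 was above testis 3 for all 17, against 65.1% of all tested probes, and after centring for all 17 against 43.3%. With 1 testis at 1 µM, the dose and the testis cannot be told apart.

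The other chaperone genes were read from lists of 103 genes present on the array, of which 72 had a tested probe, with the brightest tested probe standing for a gene. The highest and lowest genes of a list were chosen by the mean of that probe with all 3 testes. Other tested probes of a gene could read otherwise. The mean was -0.61 for the brightest Cct3 probe and -1.71 for its other, and -0.37 and 0.45 for those of Hspa4. With all 3 testes at 10 µM, 2 of 72 fell and none rose, against 1.85% lower and 0.370% higher among all probes. Without testis 2, 8 of 72 fell and 4 rose, against 9.64% and 7.25%. Both genes that fell with all 3 testes encode subunits of TRiC, the cytosolic chaperonin that folds actin and tubulin. Cct4 was at -1.61, -1.88 and -2.91 in testes 1, 2 and 3 (mean -2.14, adjusted p = 0.0284 by limma) and at -1.16 at 1 µM. Cct5 was at -1.90, -1.65 and -2.54 (mean -2.03, adjusted p = 0.0360) and at -0.87 at 1 µM. Both were changed by the 1.5-fold rule at 1 µM too, in the opposite direction to the HSP60 and HSP10 probes that were. Neither was well above background for MEHP on more than 2 of the 6 arrays at 10 µM.

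Of the 10 tested genes of the TRiC and prefoldin group, 4 fell without testis 2, the other two being Cct7 (-1.84, adjusted p = 0.0144 by limma) and Tcp1 (-1.09, adjusted p = 0.0489). Cct3 had the highest mean of the group, -0.61. Among 9 HSP90 co-chaperones and relatives only Cdc37, which loads kinases onto HSP90, fell without testis 2 (-1.35, adjusted p = 0.0325), and the group ran from Trap1 at -1.22 to Unc45a at -0.21 with all 3 testes. Of 11 J proteins only Dnaja2 fell without testis 2 (-1.25, adjusted p = 0.0423), and it was also the lowest with all 3 testes, at -1.72, where Dnajb12 was the highest at 0.09. Of 10 genes of the HSP70 and HSP110 group none passed by limma, with or without testis 2 (1 each at an unadjusted p under 0.05), with means from -1.10 for Hspa9a, the mitochondrial HSP70, to 0.25 for Hspa1a, the stress-inducible HSP70. Cryab, the only small heat shock protein tested beside Hspb1, was at -0.96. Of 6 mitochondrial chaperones and proteases Grpel1, the exchange factor of the mitochondrial HSP70, fell without testis 2 (-1.25, adjusted p = 0.0352), and Phb had the highest mean, -0.35.

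Of the 15 genes of endoplasmic reticulum folding and the unfolded protein response, 3 rose and 1 fell without testis 2. Hyou1, a relative of HSP70 in that compartment, rose by 1.62 (adjusted p = 0.0204 by limma), and the transcription factors Atf6 and Atf4 rose by 1.53 (adjusted p = 0.0173) and 1.33 (adjusted p = 0.0250). Ero1l, an oxidase that makes disulphide bonds, fell by 1.20 (adjusted p = 0.0338). For MEHP, Ero1l and Cdc37 were well above background on 1 of the 6 arrays at 10 µM and Atf6 on 2. With all 3 testes none passed (3 at an unadjusted p under 0.05), and Hyou1 had the highest mean at 0.94 and Pdia3, a disulphide isomerase, the lowest at -1.62. Hsf1, the factor that switches on the heat shock genes, was the only one of 10 heat shock factors and stress targets to pass without testis 2, at 1.07 (adjusted p = 0.04995), where Asns, a target of Atf4, had the lowest mean with all 3 testes, -1.57. At 1 µM, 2 of 71 genes were lower by the 1.5-fold rule, Cct4 and Cct5, against 2.96% of all probes.

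**Figure D5:**
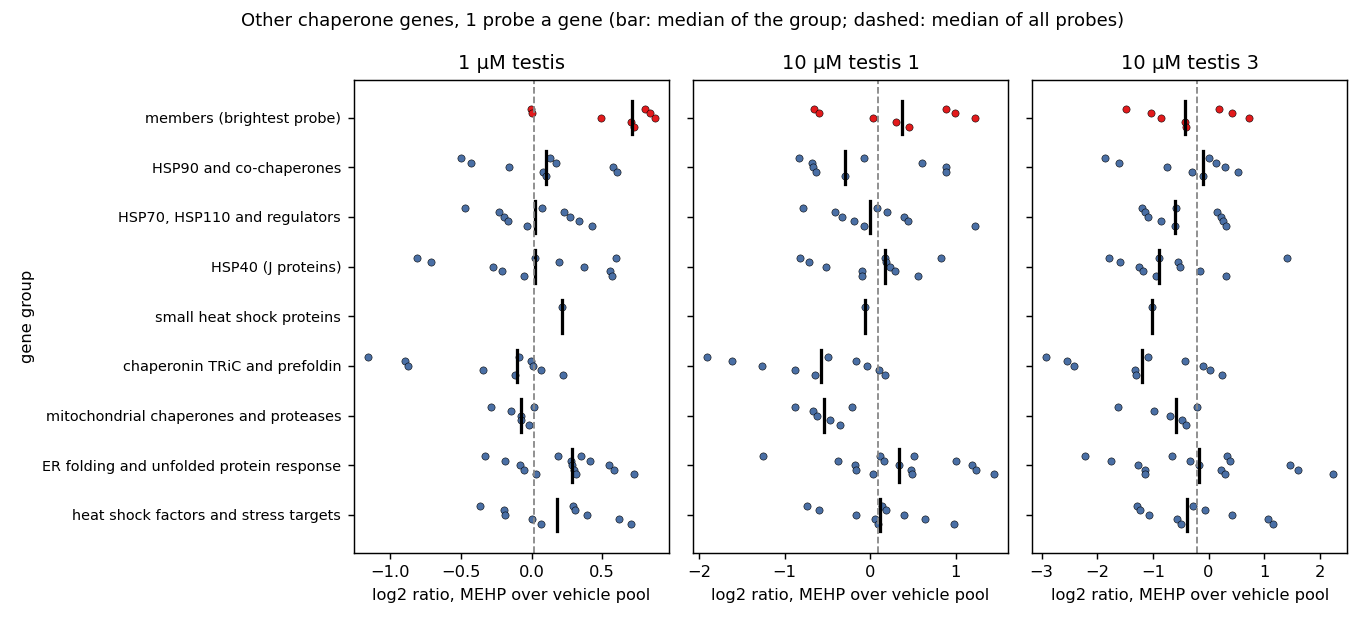
Log2 ratio of MEHP over the vehicle pool (horizontal, with its own scale in each panel) for the brightest probe of each of the 8 genes (red, top row) and of each other chaperone gene by group (blue), in the 1 µM testis and the 10 µM testes 1 and 3, with the group median as a bar and the median of all probes dashed. At 1 µM the brightest probes of the 8 genes have a median of 0.71, against 0.28 for the endoplasmic reticulum group, also read from 1 probe per gene. All 17 probes of the 8 genes, which count some genes more than once, have a median of 0.24.

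The genes closest to Hspca, by the smallest root mean square difference over the 4 testes, testis 2 included, from its brightest probe among 5136 named probes, were Cse1l, a nuclear export factor, with a difference of 0.06, Nxt1, which takes part in mRNA export, with 0.12, and Rnaset2, a ribonuclease, with 0.12. Cse1l was at 0.02 at 1 µM and at -0.71, -2.44 and -1.42 in testes 1, 2 and 3. This is a description over 4 testes that share the vehicle pool. Of the cell types in the explant, 4 of 7 Leydig cell markers and 5 of 7 Sertoli cell markers on the array were well above background in the vehicle channel on at least 4 of 8 arrays, and none of 4 germ cell and none of 3 erythroid markers was. Over the detected markers the median ratio in testes 1, 2 and 3 at 10 µM was -0.93, -1.46 and -1.97 for Leydig cells and -0.26, -1.29 and -1.23 for Sertoli cells, and at 1 µM it was -0.27 and -0.11. At 1 µM 2 of the 4 Leydig cell markers were above 0 and 2 below. Of the Sertoli cell markers, Sox9 and Clu were then above 0 and Amh, Dhh and Inha below. The medians at 10 µM also hide markers that went the other way. Star was at 1.27 in testis 1, and Sox9 was at 1.099 and 0.41 in testes 1 and 3. The other detected Leydig and Sertoli cell markers were below 0 in all 3 testes. Inha was counted for Sertoli cells, although the paper describes its fetal expression in Leydig cells too. The 1 endothelial marker detected, of 5, was at 0.43 at 1 µM and at 0.96, -2.001 and 0.81 at 10 µM. The 2 peritubular and smooth muscle markers detected, of 4, had medians of 0.06 at 1 µM and of -0.26, -1.48 and -0.40 at 10 µM. Des was above 0 and Tagln below at 1 µM and in testes 1 and 3. For the 1 immune marker detected, of 5, the values were -0.39 at 1 µM and -1.39, -0.87 and -1.47 at 10 µM. The part of these cell types in the chaperone ratios was not tested, and in whole explants fewer cells of a type and less RNA per cell cannot be told apart.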

How the data were processed

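Whole fetal testis explants were hybridized to Agilent Whole Rat Genome arrays in 2 colours. The authors scanned the arrays and processed them with Agilent Feature Extraction 9.1, per the submitters' processing notes. The deposited files give spot intensity in each channel, background-subtracted and dye-normalized processed signals, and their log10 ratio of red over green. The deposited log10 ratios were converted to log2 MEHP over vehicle, without outlier and control spots. Repeated spots were averaged first, and the pair of arrays of each testis next. Tested at 10 µM were probes that 3 or more of the 6 arrays measured well above background in either channel, and considered at 1 µM those that 1 or more of the 2 arrays did. Testis means at 10 µM were compared with 0 in limma 3.58.1 under R 4.3.3 (lmFit and eBayes, two-sided), and p-values were adjusted by Benjamini-Hochberg across the tested probes, with a threshold of 0.05. The shared vehicle pool is 1 control sample, so its own spread is left out of the p-values, and precision is limited by how few arrays there are. The doses were compared with limma over the 4 testes. The test step was checked on simulated data. Alternatives in background, normalization, filter, blocks and testes left out are given in the closing section.

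The 8 genes, the chaperone lists and the markers were chosen with earlier results of these data known. Genes were named as on the array, without the suffix for predicted genes, or through their accession in RefSeq (GRCr8, 10726 of 41012 probes matched, used for names and promoters). Beside every probe of the 8 genes, the text names in each list the genes with the highest and lowest mean at 10 µM and those past the threshold with or without testis 2, and the 3 genes most like Hspca. The deposited lists of significant genes hold the authors' own fold changes and p-values and were not used.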

Additional observations from a re-analysis of the deposited data

How the results depend on the processing

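With all 3 testes, 222 probes passed at 10 µM. The count was 121 with arrays centred on the median and 133 with an intensity trend in the variance. It was 0 with normexp background and loess, with no background correction and loess, with no filter on dim probes, with both channels required on every array (61 probes left), with first hybridizations alone, with the testis as a random block, with the vehicle pool given the spread of 1 testis and with the slide as a block, where 17 to 2914 passed limma's test at an unadjusted p under 0.05. Leaving out 1 testis each gave 0 to 1689 probes, the higher without testis 2, and 0 to 4 chaperone probes, again 4 without testis 2. No other alternative for which chaperone probes remained passed one of them. At 1 µM, 924 probes were changed, and 68 with normexp background and loess, 103 with no background correction and loess, 307 with both channels required and 226 with a 2-fold limit. Of the chaperone probes 5 were changed, and 3 (Hspe1, Hspa5 and Hspa8) with normexp and loess, 1 (Hspb1) with arrays centred, and 0 with no background correction or a 2-fold limit. The comparison of the doses passed no probe in any of 6 settings, the block by slide among them, which was added after seeing the data.

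The mean ratio at 10 µM changed sign for 5 probes. Hspa5 moved from -0.40 to 0.21 with normexp and loess, 0.19 without background correction and 0.0557 with centring, and lay between -1.04 and 0.53 when 1 testis was left out. Hspca A_44_P299870 moved from -0.79 to 0.0023 with normexp and loess and to 0.039 without background correction, and lay between -1.34 and 0.0499. Hspcb A_44_P287194 and Hspa8 A_44_P452492 moved from 0.00 and 0.01 to -0.88 and -0.24 with first hybridizations alone, and lay between -0.49 and 0.70 and between -0.60 and 0.97. Hspb1 moved from -0.35 to 0.10 with centring and lay between -0.76 and 0.0119. Of 153 values of single chaperone probes under alternatives at 10 µM, 134 kept direction and side of the threshold. No paired analysis was made, because the labels used here tie no testis at 1 µM to one at 10 µM by litter or fetus. Signal over background in testis 2 limits what its ratios show.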
